A study of Mus musculus with 2 samples.

Results

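The expression of 10 genes of resident peritoneal macrophages was followed across the cells of the mouse omentum, the fold of abdominal fat whose leukocyte clusters are called milky spots. The genes are *Gata6*, *Alox15*, *Prg4*, *Saa3*, *Icam2*, *Timd4*, *Selp*, *Serpinb2*, *F5* and *Fn1*. They were chosen by symbol, several of them because they had been seen to lead one macrophage group in these same cells, and all 10 were found among the 19960 genes listed. Since the choice used these values, levels in macrophages are given as a description and not as evidence that the genes belong together.

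The study profiled omental cells of wild-type (WT) mice and of *Postn*-DTR mice, in which a diphtheria toxin receptor cassette was placed at the *Postn* locus so that diphtheria toxin (DT) kills *Postn*-expressing stromal cells. Both groups received DT, and cells were captured 5 days later without a stated sort. Each group is 1 droplet-based single-cell library made from 3 pooled mice, so there was no replicate and no test, and strain and age are not given in the labels. The *Postn* locus is also active in mesenchymal cells of other tissues, so the ablation is not restricted to the omentum by its design.

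GATA6 is a zinc-finger transcription factor that directs the gene program of large peritoneal macrophages, and its expression there depends on retinoic acid. Milky spots hold macrophages of several kinds, among them cells resembling those of the peritoneal fluid and tissue macrophages rich in complement C1q. Among the other genes, *Alox15* encodes a lipoxygenase, *Prg4* the lubricating proteoglycan lubricin, *Saa3* an acute-phase serum amyloid, *Icam2*, *Selp* and *Timd4* surface receptors, and *F5*, *Serpinb2* and *Fn1* proteins of clotting, plasminogen control and matrix.

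After filtering, 8654 WT cells and 5727 *Postn*-DTR cells remained, with a median of 5635 and 8472 unique molecular identifiers (UMIs, counted transcript molecules) per cell. A level is the mean over cells of UMIs per 10000 UMIs of a cell. Counts and shares carry exact 95% intervals, and these hold only the error of counting, not the spread between animals. Intervals on summed UMIs also leave out the spread between cells. They are too narrow where a few cells hold most UMIs. The libraries shared 65 cell barcodes, and none of these was a macrophage barcode. *Postn* itself was found in 9 of 41 WT stromal cells (22.0%, 10.6 to 37.6) and in 4 of 20 *Postn*-DTR stromal cells (20%, 5.73 to 43.7), so the shares could not be told apart at this number of stromal cells. Its stromal level was 0.665 in WT (50 UMIs, 22 of them in 1 cell) and 0.153 in *Postn*-DTR (9 UMIs), and outside stromal cells it was found in 0.290% (0.188 to 0.428) and 0.0701% (0.0191 to 0.179) of cells.

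Macrophages were taken as cells of macrophage-like clusters, built without the 10 genes, that held a UMI of *Adgre1* (F4/80) or *Csf1r* (the receptor for macrophage colony-stimulating factor). All 12 macrophage markers were higher in these cells than in the remaining cells of the same library, in both libraries. The clusters were named by the same markers, and *Adgre1* and *Csf1r* are among them, so this followed from the choice of cells. There were 107 such cells in WT, 1.24% of leukocytes (1.02 to 1.502), and 242 in *Postn*-DTR, 4.25% (3.74 to 4.80). Their depth was close, with medians of 5534 and 5164 UMIs. A share depends on the other classes and is not a number of macrophages. T-like cells were 25.9% of leukocytes in WT and 5.34% in *Postn*-DTR, B-like cells 31.2% and 16.5%, and plasma-like cells 7.22% and 39.1%. In its own cell counts the study found omental macrophage numbers unaltered and total leukocytes reduced in *Postn*-DTR.

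Genomic context was read from the GRCm38 assembly, to which the submitters' processing notes (mm10) refer. *Selp* (chromosome 1, 164115264 to 164150026, plus strand) and *F5* (chromosome 1, 164151838 to 164220277, plus strand) are neighbours separated by 1811 bases. *Serpinb2* (107511423 to 107535478, plus strand), *Prg4* (150449412 to 150466165, minus strand) and *Fn1* (71585520 to 71653200, minus strand) also lie on chromosome 1. *Timd4* (46810800 to 46844332, plus strand), *Alox15* (70344152 to 70352031, minus strand) and *Icam2* (106377656 to 106388075, minus strand) lie on chromosome 11, and *Saa3* (46711998 to 46715700, minus strand) on chromosome 7.

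RefSeq promoter sequences (GRCm38.p6) were matched by symbol for 5 of the 10 genes, in 6 windows. The 250 bases before the start are shown for *Saa3* and *Timd4*, whose levels in macrophages differed in opposite directions between the libraries, and for the neighbours *Selp* and *F5*. Each is given 5′ to 3′ on the strand of the gene, and capitals mark a match to a GATA motif, the letters AGATAA with A or T first and A or G last, on either strand.
Saa3, chr7:46715677-46715926, minus strand: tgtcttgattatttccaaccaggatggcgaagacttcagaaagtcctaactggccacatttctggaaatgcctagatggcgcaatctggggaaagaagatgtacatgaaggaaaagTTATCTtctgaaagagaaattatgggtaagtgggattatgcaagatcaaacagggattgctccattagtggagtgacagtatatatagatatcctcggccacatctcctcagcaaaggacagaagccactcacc
Timd4, chr11:46810549-46810798, plus strand: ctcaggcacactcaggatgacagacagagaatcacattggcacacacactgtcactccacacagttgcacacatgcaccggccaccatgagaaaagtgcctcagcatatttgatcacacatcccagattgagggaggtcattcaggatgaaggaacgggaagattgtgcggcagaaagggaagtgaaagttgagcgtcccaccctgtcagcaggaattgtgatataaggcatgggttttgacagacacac
Selp, chr1:164115014-164115263, plus strand: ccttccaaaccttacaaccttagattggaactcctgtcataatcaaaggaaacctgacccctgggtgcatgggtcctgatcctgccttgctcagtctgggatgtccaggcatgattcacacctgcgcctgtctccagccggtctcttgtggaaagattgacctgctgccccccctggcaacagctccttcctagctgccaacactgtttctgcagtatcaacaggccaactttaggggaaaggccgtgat
F5, chr1:164151585-164151834, plus strand: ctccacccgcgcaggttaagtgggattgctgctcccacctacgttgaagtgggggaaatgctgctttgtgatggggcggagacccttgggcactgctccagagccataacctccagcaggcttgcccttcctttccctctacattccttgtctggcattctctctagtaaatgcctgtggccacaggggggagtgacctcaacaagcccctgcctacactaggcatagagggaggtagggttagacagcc
A match was present in 2 of the 6 windows, 1 in *Saa3* and 1 in the second of 2 *Serpinb2* windows, against 26.5% of 32851 promoter windows of the same length in RefSeq. A match is a run of letters and not a binding site, and no match says only that these letters are not in the window.

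*Gata6*, on chromosome 18 (11052064 to 11085635, plus strand), was highest in stromal cells rather than in macrophages, in both libraries. Its level was 1.46 UMIs per 10000 in the 41 WT stromal cells (132 UMIs in 35 cells) and 0.413 in the 20 *Postn*-DTR stromal cells (24 UMIs in 13 cells). In single stromal cells the level ran from 0 to 8.34 with a median of 1.06 in WT, and from 0 to 1.27 with a median of 0.368 in *Postn*-DTR. The ranges overlapped, and the high values were in WT. For stromal cells the log2 ratio of *Postn*-DTR over WT came to -1.82 from mean levels and to -1.54 from summed UMIs (interval -2.24 to -0.91).

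In macrophages the *Gata6* level was lower than in stromal cells of the same library, although *Postn*-DTR macrophages held more of its UMIs than the few stromal cells did. The level was 0.0828 in WT (11 UMIs in 7 of 107 cells) and 0.256 in *Postn*-DTR (45 UMIs in 39 of 242 cells). The most in 1 cell was 4 UMIs in WT and 2 in *Postn*-DTR. The share of macrophages with a UMI was 6.54% (2.67 to 13.02) and 16.1% (11.7 to 21.4). Thinned to 1000 UMIs per cell, which left out 15 *Postn*-DTR cells and no WT cell, the shares were 2.80% (3 of 107) and 2.64% (6 of 227). Thinned to 2000 UMIs they were 1.01% of 99 cells (0.0256 to 5.50) and 7.14% of 196 cells (3.96 to 11.7), and the intervals overlapped. The log2 ratio came to 1.63 from mean levels, and summed UMIs gave 0.94 with an interval (-0.04 to 2.04) that includes 0. A difference in *Gata6* between WT and *Postn*-DTR macrophages was therefore not detectable at this depth.

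Other myeloid cells held few *Gata6* UMIs. Monocyte-like cells with a UMI were 0 of 168 in WT, which allows up to 1.79% of cells with a UMI (not a limit on cells expressing the gene), and 2 of 219 in *Postn*-DTR. DC-like cells gave 2 of 441 and 0 of 76, the latter allowing up to 3.95%. T-like cells, which should lack the gene, gave 3 of 2224 (0.135%) and 0 of 304 at median depths of 4626 and 4464 UMIs. In *Postn*-DTR neutrophil-like cells 16 of 17 UMIs lay in 1 cell. Of all *Gata6* UMIs, macrophages held 6.63% in WT and 44.1% in *Postn*-DTR, and stromal cells 79.5% and 23.5%. Among the GATA family, *Gata1*, *Gata2*, *Gata4* and *Gata5* gave at most 1 UMI and *Gata3* gave 6 UMIs in macrophages, both libraries together.

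**Figure D1:**
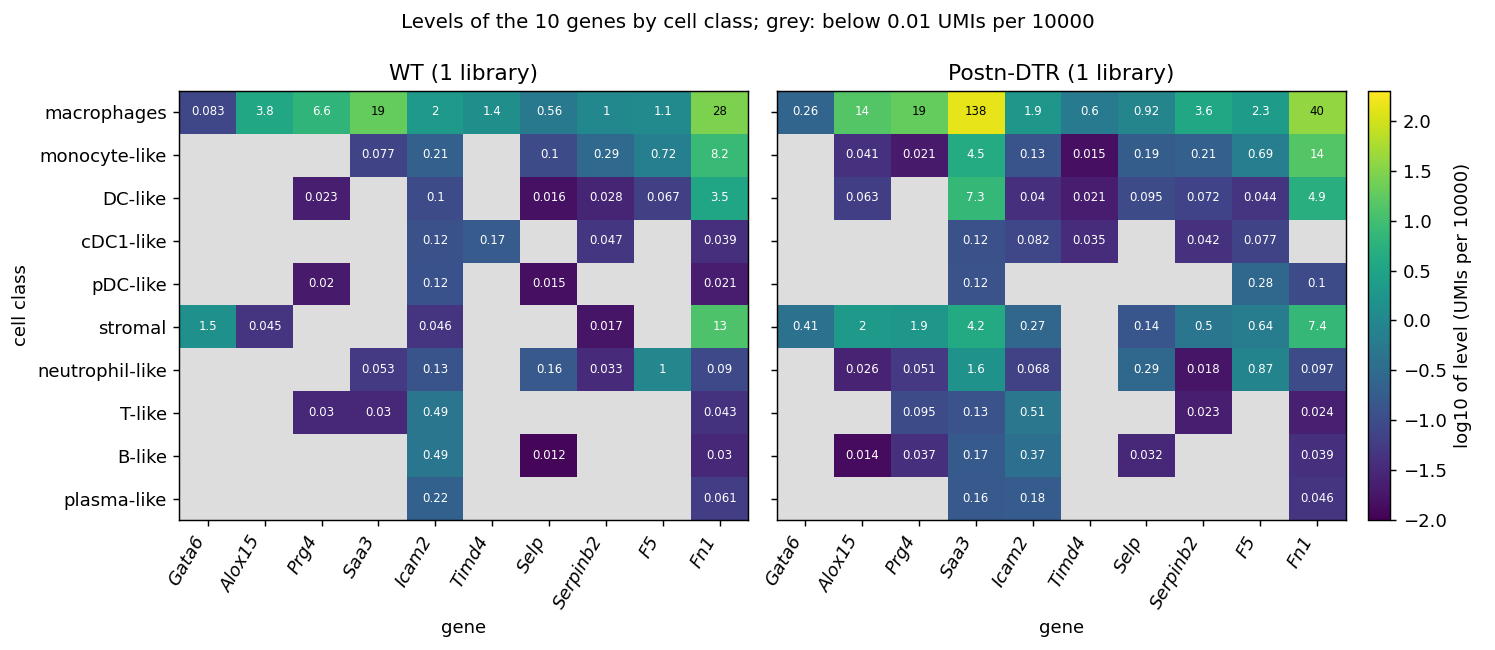
Levels of the 10 genes (columns) in 10 cell classes (rows) of the WT and the *Postn*-DTR library, in UMIs per 10000 on a log10 colour scale, with the level printed where it is at least 0.01. Macrophages were the highest class for every gene but *Gata6*, which was highest in stromal cells (1.46 in WT, 0.413 in *Postn*-DTR).

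The genes whose profile over cell classes was most like that of *Gata6* were stromal genes. Over 20 profiles (10 classes in each of 2 libraries, classes with at least 20 cells in each), Pearson's r of log2 levels was highest for *C1ra* (0.95), *Cald1* (0.95), *Ptgis* (0.94), *Dcn* (0.92), *Serping1* (0.92), *Col3a1* (0.92), *Igfbp7* (0.91), *Gas6* (0.91), *Sparc* (0.91) and *Htra3* (0.91). All 10 were highest in stromal cells. Of the other macrophage genes the closest was *Alox15*, at r = 0.64 and rank 141 of 4581 candidates. The profiles share libraries and depth, and r is a description.

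The *Gata6*-positive stromal cells of WT held more mesothelial transcripts. The summed level of 8 mesothelial markers averaged 31.1 in the 35 WT stromal cells with a *Gata6* UMI and 8.23 in the 6 without, while 8 fibroblast markers gave 148 and 161. In *Postn*-DTR the mesothelial sum was 7.56 in the 13 cells with a UMI and 8.97 in the 7 without. Over all stromal cells the mesothelial sum was 27.8 in WT and 8.05 in *Postn*-DTR, and the fibroblast sum 150 and 75.0. These values moved with *Gata6*, and their part in its lower stromal level was not tested. *Aldh1a2*, which makes retinoic acid, was also lower in *Postn*-DTR stromal cells, at 3.48 (303 UMIs in 38 of 41 cells) against 0.652 (31 UMIs in 12 of 20).

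*Alox15*, *Prg4* and *Saa3* formed the secreted and enzymatic group and had higher mean levels in *Postn*-DTR macrophages. *Alox15* was at 3.84 in WT (382 UMIs in 27 of 107 cells) and 14.3 in *Postn*-DTR (2705 UMIs in 129 of 242), a log2 ratio of 1.90. *Prg4* was at 6.62 (659 UMIs in 40 cells) and 19.2 (3668 UMIs in 142 cells), a log2 ratio of 1.53. *Saa3* was at 19.2 (2162 UMIs in 37 cells) and 138 (20715 UMIs in 180 cells), a log2 ratio of 2.84. On summed UMIs the ratios were 1.73 (1.57 to 1.89), 1.38 (1.26 to 1.503) and 2.16 (2.10 to 2.23). The macrophages of each library lay largely in different sub-clusters, described after the shares of cells. With *Postn*-DTR levels weighted to the WT mix of sub-clusters, a weighting that rests largely on 3 *Postn*-DTR cells, the log2 ratios of the means were 0.26 for *Alox15*, 0.27 for *Prg4* and 1.22 for *Saa3*.

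In both libraries these 3 genes ran from 0 in many macrophages to high levels in a few. The median WT macrophage held no UMI of any of them, and the highest reached 62.4 for *Alox15*, 148 for *Prg4* and 363 for *Saa3*. In *Postn*-DTR the medians were 2.06, 8.93 and 60.3, and the highest cells reached 95.4, 270 and 1367. The 11 highest WT macrophages held 80.9% of the *Alox15* UMIs of that library, and the 24 highest *Postn*-DTR macrophages held 44.8%.

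*Alox15* and *Prg4* were mostly found in macrophages, which held 93.4% of all *Alox15* UMIs in each library and 90.6% and 93.9% of the *Prg4* UMIs. Mast-like and basophil-like cells were the next class for *Alox15*, at 0.623 in 25 WT cells and 1.12 in 13 *Postn*-DTR cells. In stromal cells of *Postn*-DTR the *Alox15* level of 2.02 came from 1 cell with 65 UMIs, and without that cell, an alternative added after the values were seen, it was 0. The same cell held 60 of the 63 *Prg4* UMIs and 127 of the 134 *Saa3* UMIs of that class, and the 12 macrophage markers summed to 36.4 in *Postn*-DTR stromal cells against 7.87 in WT.

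*Saa3* was higher in *Postn*-DTR in other myeloid cells as well. Monocyte-like cells were at 0.0774 in WT (43 UMIs in 7 of 168 cells) and 4.46 in *Postn*-DTR (834 UMIs in 72 of 219), a log2 ratio on summed UMIs of 3.92 (3.47 to 4.39). DC-like cells gave 3 UMIs in 3 of 441 cells and 519 UMIs in 9 of 76, of which 255 lay in 1 cell. Neutrophil-like cells were at 0.0534 and 1.61. In lymphoid classes, which should lack the gene, the levels were 0.0301 and 0.125 in T-like, 0.00813 and 0.168 in B-like and 0.000537 and 0.161 in plasma-like cells. The log2 ratios on summed UMIs were -0.48 (-1.36 to 0.29), 4.11 (3.24 to 5.10) and 6.93 (4.44 to 12.2). In WT T-like cells 134 of the 143 UMIs lay in 1 cell, and from mean levels the T-like ratio was 2.06. Levels in *Postn*-DTR were thus higher in lymphoid classes too, but far below those of macrophages. Whether these cells made the transcript was not tested. Of the other serum amyloid genes, *Saa1* gave 1 UMI and *Saa2* none in macrophages.

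The surface receptors did not move as a group. *Timd4*, a phosphatidylserine receptor of resident macrophages, was lower in *Postn*-DTR macrophages, at 1.40 in WT (136 UMIs in 23 cells) and 0.602 in *Postn*-DTR (108 UMIs in 42 cells), a log2 ratio of -1.22 from mean levels and of -1.43 (-1.81 to -1.05) from summed UMIs. Outside macrophages it was mainly found in cDC1-like cells of WT, in 29 of 151 (19.2%, 13.3 to 26.4).

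*Icam2*, a ligand of the integrin LFA-1, was at 2.02 and 1.92 in WT and *Postn*-DTR macrophages, a log2 ratio on summed UMIs of -0.05 (-0.30 to 0.21). It was no macrophage-restricted gene, since macrophages held only 6.83% and 19.97% of its UMIs and 21.7% of WT T-like cells had one. *Selp*, encoding P-selectin, was at 0.557 (59 UMIs in 19 cells) and 0.920 (183 UMIs in 77 cells), a log2 ratio of 0.72 from mean levels and of 0.54 (0.11 to 0.99) from summed UMIs. It was also found in 9.24% to 21.9% of the monocyte-like and neutrophil-like cells of the libraries. Weighted to the WT mix of sub-clusters, the log2 ratios of *Timd4*, *Icam2* and *Selp* were -2.89, -1.62 and -0.88.

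Of the clotting and matrix genes, *Serpinb2* (plasminogen activator inhibitor type 2) was higher in *Postn*-DTR macrophages, at 1.01 in WT (117 UMIs in 21 cells) and 3.61 (662 UMIs in 95 cells), a log2 ratio of 1.84 from mean levels and of 1.40 (1.12 to 1.70) from summed UMIs. *F5*, coagulation factor V, was at 1.10 (114 UMIs in 23 cells) and 2.34 (476 UMIs in 109 cells), a log2 ratio of 1.08 and on summed UMIs 0.97 (0.67 to 1.27). *Fn1*, fibronectin, was the most abundant of the 10 in WT macrophages, at 27.9 (2878 UMIs in 74 cells) and 39.8 (7317 UMIs in 186 cells), and its ratio was the smallest of the higher ones, 0.51 from mean levels and 0.25 (0.19 to 0.31) from summed UMIs. In WT, 1 cell held 670 of the 2878 *Fn1* UMIs. Without the top cell of each library the *Fn1* ratio from mean levels was 0.63. Weighted to the WT mix of sub-clusters, *Serpinb2* was at a log2 ratio of 0.16, *F5* at -0.51 and *Fn1* at -0.54.

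These 3 genes reached beyond macrophages. *F5* was at 0.995 in WT and 0.872 in *Postn*-DTR neutrophil-like cells and at 0.724 and 0.687 in monocyte-like cells, ratios on summed UMIs of 0.05 (-0.12 to 0.22) and -0.20 (-0.51 to 0.11). *Serpinb2* in monocyte-like cells was at 0.291 and 0.208, a ratio of -0.81 (-1.43 to -0.20). *Fn1* was at 8.20 and 14.3 in monocyte-like cells, 3.50 and 4.92 in DC-like cells and 12.7 and 7.39 in stromal cells, the latter a ratio of -0.67 (-0.85 to -0.49).

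Taking the 10 genes as a list, 6 were at least 2-fold higher and 1 at least 2-fold lower in *Postn*-DTR macrophages by their means. Of the 2632 genes with at least 100 UMIs in macrophages, 5.66% were at least 2-fold higher and 4.03% at least 2-fold lower, with a median log2 ratio of -0.10. Of the 10 genes, 9 reached 100 UMIs, and their median was 1.08, with 5 higher and 1 lower. With *Postn*-DTR levels weighted to the WT mix of the macrophage sub-clusters, 1 of the 10 was at least 2-fold higher and 2 at least 2-fold lower. The shares of all genes were not computed under that weighting. The genes were chosen with this pattern in view, so the counts are not independent of it.

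**Figure D2:**
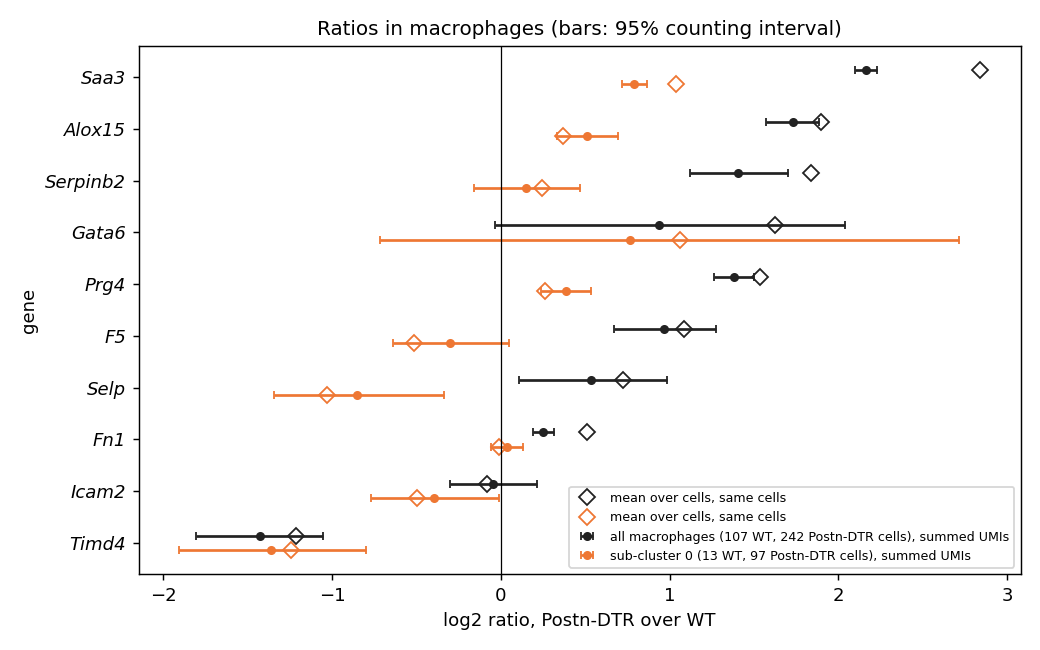
Log2 ratios of *Postn*-DTR over WT for the 10 genes, in all macrophages (black) and in macrophage sub-cluster 0 alone (orange), with filled points for summed UMIs with 95% counting intervals and open diamonds for means over cells. In sub-cluster 0 the ratios lie closer to 0 than in all macrophages for *Alox15* (0.51 against 1.73) and *Serpinb2* (0.15 against 1.40), while *Timd4* stays at -1.36 against -1.43.

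Shares of cells differed between the libraries for part of the genes. Thinned to 1000 UMIs per cell, a UMI was kept in 14.02% of WT and 43.2% of *Postn*-DTR macrophages for *Alox15* (8.06 to 22.1 and 36.6 to 49.9), in 22.4% and 50.7% for *Prg4* (14.9 to 31.5 and 44.0 to 57.3), and in 26.2% and 72.2% for *Saa3* (18.2 to 35.6 and 65.9 to 78.0). For *F5* the shares were 6.54% and 20.7%, and for *Timd4* 10.3% and 0.881%. The intervals of these 5 genes did not overlap, and those of *Gata6*, *Icam2*, *Selp*, *Serpinb2* and *Fn1* did. How often the intervals lay apart over all genes was not computed, so this count has no background beside it. At 2000 UMIs per cell the *Timd4* shares of 17.2% (10.3 to 26.1) and 9.69% (5.94 to 14.7) overlapped. Those of *Serpinb2*, at 9.09% (4.24 to 16.6) and 29.6% (23.3 to 36.5), did not. Unthinned, the share with a UMI was 69.2% and 76.9% for *Fn1*, 43.9% and 45.5% for *Icam2*, 17.8% and 31.8% for *Selp* and 19.6% and 39.3% for *Serpinb2*. T-like cells kept a UMI in at most 1.32% of cells for every gene but *Icam2*.

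**Figure D3:**
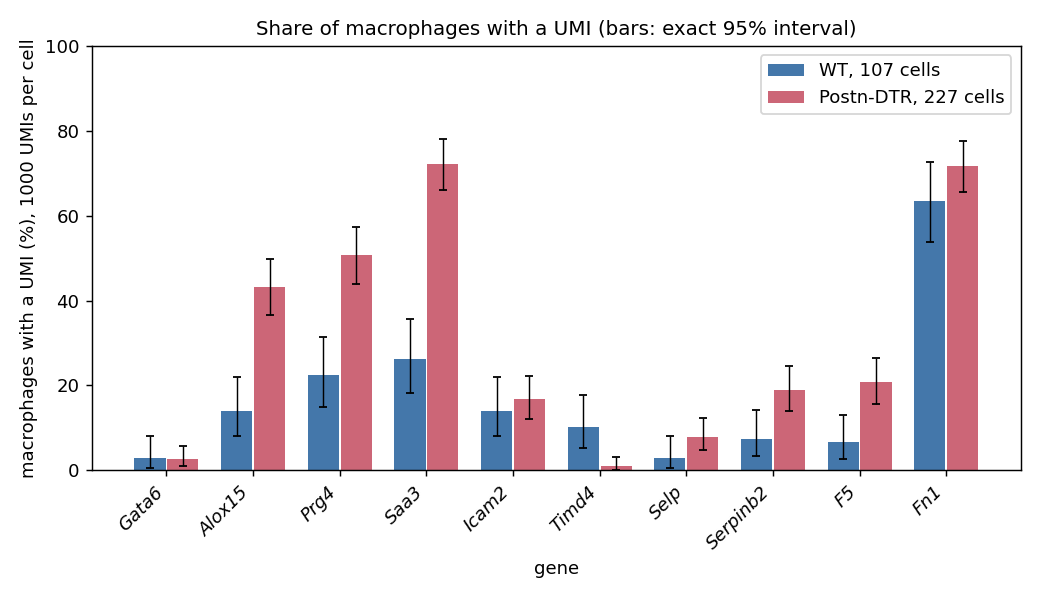
Share of macrophages (%) with a UMI of each of the 10 genes after thinning each cell to 1000 UMIs, for 107 WT and 227 *Postn*-DTR cells, with exact 95% intervals. *Saa3* shows the widest gap, 26.2% against 72.2%, while *Gata6* is at 2.80% and 2.64%.

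The 10 genes were found together in single macrophages. The median macrophage held a UMI of 2 of them in WT and of 5 in *Postn*-DTR, against 2 in monocyte-like cells and 0 in DC-like and T-like cells of both libraries. After thinning, at least 5 were kept in 10 of 107 WT macrophages (9.35%, 4.57 to 16.5) and in 76 of 227 *Postn*-DTR macrophages (33.5%, 27.4 to 40.0), and in 0 of 168 and 0 of 219 monocyte-like cells. The distribution was wide in *Postn*-DTR, where 20.3% of the macrophages kept none and 18.1% kept 5.

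**Figure D4:**
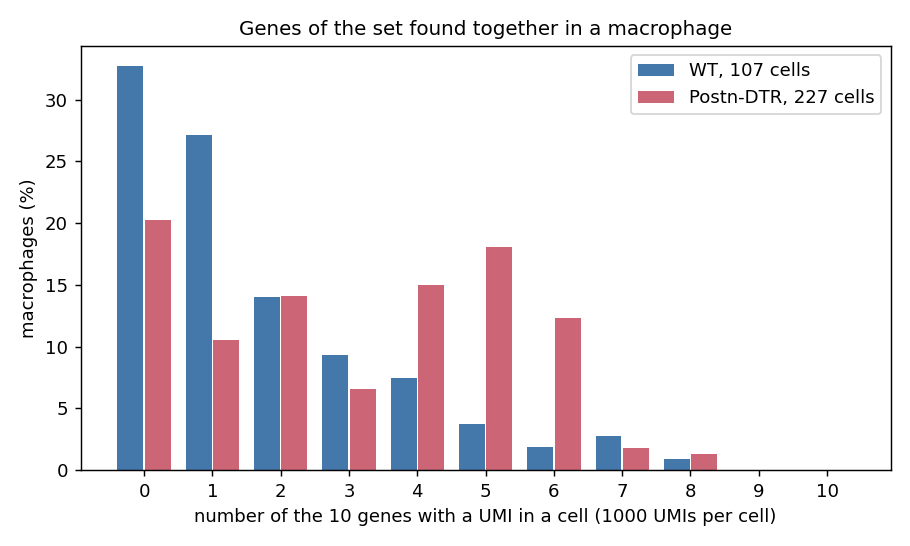
Percentage of macrophages by the number of the 10 genes with a UMI in the cell, after thinning to 1000 UMIs, for 107 WT and 227 *Postn*-DTR cells. WT cells are concentrated at 0 (32.7%) and 1 (27.1%), and *Postn*-DTR cells show a further rise at 4 to 6 genes (14.98%, 18.1% and 12.3%).

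Cells with a *Gata6* UMI had more of the other genes. All 7 WT macrophages with a *Gata6* UMI also held *Alox15*, *Prg4*, *Saa3* and *Fn1*, against 20%, 33%, 30% and 67% of the 100 without. In *Postn*-DTR, *Alox15* was found in 37 of 39 cells with a *Gata6* UMI (94.9%, 82.7 to 99.4) and in 92 of 203 without (45.3%, 38.3 to 52.4), *Prg4* in 97.4% and 51.2%, *Serpinb2* in 79.5% and 31.5% and *Timd4* in 33.3% and 14.3%. Cells with a *Gata6* UMI were deeper, at medians of 11535 UMIs in WT and 8890 in *Postn*-DTR against 5144.5 and 4436 in those without. With the other genes thinned to 1000 UMIs, *Alox15* was kept in 79.5% of the *Gata6*-positive and 35.6% of the remaining *Postn*-DTR macrophages, *Prg4* in 84.6% and 43.6% and *Serpinb2* in 43.6% and 13.8%. *Timd4* was then kept in 0 of 39 and 2 of 188 cells, and in WT *F5* in 0 of 7 and 7 of 100. These counts are too small to tell whether an excess remained. In *Postn*-DTR, *F5* was kept in 38.5% of the *Gata6*-positive and 17.0% of the remaining macrophages. Of the 39 *Postn*-DTR cells with a *Gata6* UMI, 31 lay in sub-cluster 0, described below. In that sub-cluster 91 of 97 *Postn*-DTR macrophages held *Alox15*, with or without *Gata6*. Whether an excess remained within the sub-cluster was not tested.

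Several of the other genes varied together. Over the macrophages of each library, Spearman's rho was 0.78 in WT and 0.89 in *Postn*-DTR between *Alox15* and *Prg4*, 0.66 and 0.79 between *Alox15* and *Serpinb2* and 0.70 and 0.60 between the neighbours *Selp* and *F5*. With *Gata6*, rho was between 0.23 and 0.48 in WT and between 0.19 and 0.43 in *Postn*-DTR, and its UMIs lay in only 7 and 39 cells, which limits the rho it can reach. The 28 pairs without *Gata6* and *Timd4* ran from 0.42 to 0.79 in WT, and from 0.32 (*Icam2* and *Selp*) to 0.89 in the other library, and so overlapped the *Gata6* pairs. For *Timd4* the values were low too, with rho from 0.20 to 0.41 for WT and, for *Postn*-DTR, from 0.27 to 0.44 with the 8 genes other than *Gata6*. These values are over 107 and 242 cells that share a library and vary in depth, and they are descriptions. They are also not independent of the choice of genes, several of which had been seen to lead 1 group.

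Macrophage-like cells were next clustered among themselves, again without the 10 genes. Of the 5 sub-clusters, sub-cluster 0 was led by *Slpi*, *Chil3*, *Garnl3*, *Ackr3* and *Pglyrp1*, with the peritoneal macrophage genes *Ltbp1*, *F10* and *Itga6* also among its first 15. *S100a8*, *Lcn2* and *Cd177*, genes of neutrophils, were among the first 15 too, and *Chil3* and *Pglyrp1* are also made by neutrophils or their precursors. It held 13 of the 107 WT macrophages (12.1%, 6.63 to 19.9) and 97 of the 242 *Postn*-DTR macrophages (40.1%, 33.9 to 46.6). Sub-cluster 2, led by *Retnla*, *Fcrls* and *Cd209g*, held 79 WT macrophages and 3 of *Postn*-DTR. Sub-cluster 1, led by *Vcam1* and *Ms4a4a* with collagen genes, held 4 and 84. Sub-cluster 3, at a median of 823 UMIs and led in part by mitochondrial genes, held 1 and 28, and sub-cluster 4, led by B cell genes, 10 and 30. Sub-clusters 0 to 3 were each mostly 1 library and may be that library rather than a type.

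In *Postn*-DTR, sub-cluster 0 held most UMIs of each of the 10 genes, from 72.4% (*Saa3*) to 92.1% (*Serpinb2*). Several of the genes were chosen for leading such a group, so this describes the choice. In WT it held 30.9% of the *Timd4*, 36.2% of the *Fn1*, 36.4% of the *Gata6* and 39.0% of the *Icam2* UMIs, and sub-cluster 2 held 46.3% and 48.7% of the *Timd4* and *Icam2* UMIs. Sub-cluster 0 held 75.9% of the *Alox15* UMIs of WT macrophages and 83.4% of those of *Postn*-DTR, and for *Serpinb2* 86.3% and 92.1%. At least 5 of the 10 genes were found in 13 of 13 WT and 93 of 97 *Postn*-DTR cells of sub-cluster 0, against 11 of 79 WT cells of sub-cluster 2 and 3 of 84 *Postn*-DTR cells of sub-cluster 1. In sub-cluster 4 it was 3 of 10 WT and 25 of 30 *Postn*-DTR cells, and in sub-cluster 3 it was 6 of 28 *Postn*-DTR cells. The level of *Alox15* in *Postn*-DTR was 29.96 in sub-cluster 0 and 0.208 in sub-cluster 1, and in WT 23.2 in sub-cluster 0 and 0.826 in sub-cluster 2.

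Within sub-cluster 0 the libraries differed less than over all macrophages in *Alox15*, *Prg4*, *Serpinb2* and *Fn1*. *Alox15* was at 23.2 in WT (cells from 0.799 to 62.4, median 19.1) and 29.96 in *Postn*-DTR (0 to 95.4, median 25.1), a log2 ratio of 0.37. *Prg4* was at 33.2 (13.9 to 148, median 21.5) and 39.8 (0 to 270, median 36.9), a ratio of 0.26. *Serpinb2* was at 6.95 and 8.24 (0.25), and *Fn1* at 76.9 and 76.3 (-0.01). The ranges of the cells overlapped throughout.

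*Saa3* also differed less than over all macrophages, but stayed higher in *Postn*-DTR. It was at 109 in WT (0 to 363, median 54.3) and 223 in *Postn*-DTR (0 to 1224, median 164.5). The log2 ratio was 1.04 from mean levels and 0.79 (0.72 to 0.87) from summed UMIs. *Timd4* was lower, at 2.80 (found in 6 of 13 cells) and 1.19 (30 of 97 cells), a ratio of -1.24. *Selp* was at 3.66 (13 of 13 cells) and 1.80 (58 of 97), a ratio of -1.03, in the direction opposite to that over all macrophages. *F5* was at 7.07 and 4.94 and *Icam2* at 5.42 and 3.85, with ratios of -0.52 and -0.49. *Gata6* gave 4 UMIs in 3 of 13 cells and 37 UMIs in 31 of 97, a ratio on summed UMIs of 0.76 (-0.71 to 2.71), and its levels of 0.246 and 0.513 compare with 1.46 and 0.413 in stromal cells. By the means, 2 of the 10 genes (*Gata6* and *Saa3*) were at least 2-fold higher and 2 (*Timd4* and *Selp*) at least 2-fold lower, against 8.76% and 3.45% of the 1073 genes with at least 100 UMIs in this sub-cluster. Of the 9 members that reached 100 UMIs there, which leaves out *Gata6*, 1 was higher and 2 lower, at a median log2 ratio of -0.01. The WT side rests on 13 cells of pooled mice.

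**Figure D5:**
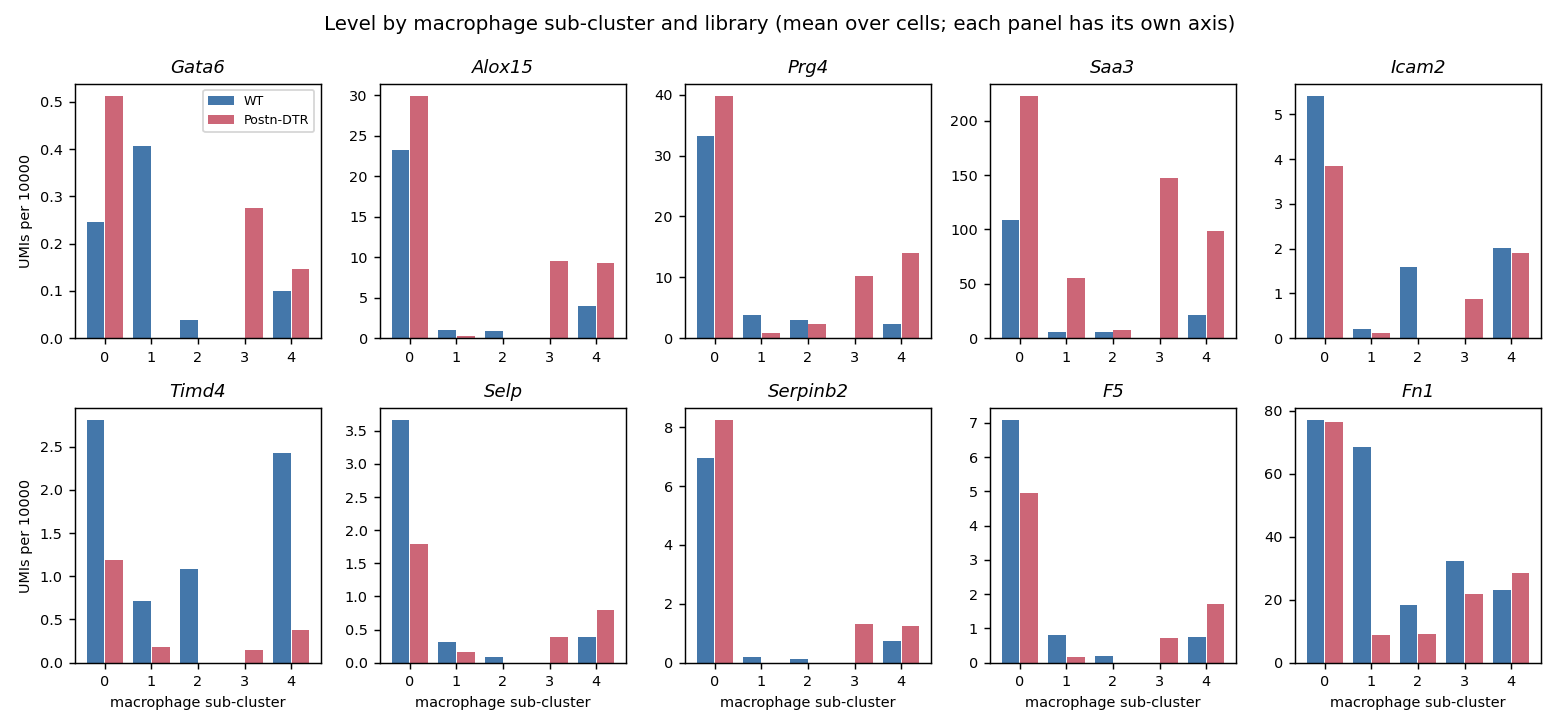
Level (UMIs per 10000, mean over cells, 1 axis per gene) in the 5 macrophage sub-clusters of WT and *Postn*-DTR. Sub-cluster 0 is the highest for *Alox15* (23.2 and 29.96) and *Prg4* (33.2 and 39.8), while the WT bars of sub-clusters 1 and 3 and the *Postn*-DTR bars of sub-cluster 2 rest on 4, 1 and 3 cells.

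Outside sub-cluster 0, *Saa3* was at 5.47 in the 4 WT cells of sub-cluster 1, with all 54 UMIs in 1 cell. In the 84 *Postn*-DTR cells of that sub-cluster *Saa3* was at 55.4 (found in 37 of these). In sub-cluster 2 it was at 5.24 in 79 WT cells and 7.01 in 3 *Postn*-DTR cells, a log2 ratio on summed UMIs of -0.15 (-1.37 to 0.84). At a finer resolution of all cells, the macrophage-like cluster that was not led by peritoneal genes (93 WT and 120 *Postn*-DTR macrophages) had *Saa3* at 3.44 and 49.6, a log2 ratio of 3.85. In the same cluster *Timd4* was at 0.960 and 0.156 and *Icam2* at 1.24 and 0.195, log2 ratios of -2.62 and -2.66, and *Fn1* at 17.2 and 8.68 (-0.98).

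Further genes of peritoneal macrophages, from a list that leaves out the 10, moved in part with them. Of 25 listed genes 19 reached 100 UMIs in macrophages, 8 were at least 2-fold higher and 1 at least 2-fold lower in *Postn*-DTR (against 5.66% and 4.03% of all genes measured), and their median log2 ratio was 0.93. The most abundant were *Cebpb* (22.1 and 28.6, a ratio of 0.37), *Thbs1* (9.36 and 24.97, 1.42), the complement gene *C4b* (6.70 and 11.3, 0.75) and *Arg1*, encoding arginase (0.485 and 9.59, 4.30).

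The lists of C1q-rich tissue macrophages and of small peritoneal or monocyte-derived macrophages had negative median ratios. Of 15 tissue macrophage genes, all measured at 100 UMIs or more, 0 were at least 2-fold higher and 6 at least 2-fold lower, against the same 5.66% and 4.03%, with a median of -0.88. The most abundant, *Apoe*, went the other way (154 and 239, 0.64), while *C1qb*, *C1qc* and *C1qa* had ratios of -0.68, -0.65 and -1.03. Of 7 measured genes of the small peritoneal list, 2 were at least 2-fold higher (*Plac8*, 2.22, and *Ly6c2*, 1.48) and 5 lower, against 5.66% and 4.03%. The most abundant were *Retnla* (127 and 5.50, -4.53), *Cd74* (-2.12), *H2-Aa* (-2.10) and *H2-Ab1* (-2.22). Of 8 genes shared by macrophages none passed 2-fold in either direction, at a median of 0.10, among them *Lyz2* (-0.43), *Itgam* (0.30) and *Csf1r* (-0.50). With 5.66% and 4.03% of all genes past 2-fold, that count says little for so short a list.

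Among genes of clotting and fibrinolysis, 5 of 8 measured were at least 2-fold higher and 1 at least 2-fold lower, against 5.66% and 4.03% of all genes measured, at a median of 1.22. *F10*, coagulation factor X, was at 0.591 and 4.11 (2.80) and *Plaur*, the urokinase receptor, at 1.62 and 3.33 (1.03), while *F13a1* was at 7.61 and 5.88 (-0.37). *Thbs1* belongs to this list too. None of 5 measured adhesion genes passed 2-fold (*Itgb2* -0.15, *Selplg* -0.44, *Itgb1* 0.13, *Itga4* 0.26), which is near the same 5.66% and 4.03% for so short a list. Of the lipoxygenase genes, *Alox5ap* was at 14.8 and 19.3 (0.39) and *Alox5* at 1.84 and 0.869 (-1.08), and *Alox8*, *Alox12* and *Alox12e* gave at most 1 UMI.

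Genes of retinoic acid synthesis and response were sparse in macrophages, and 1 of 16 reached 100 UMIs, *Rara* (0.408 and 0.550, a log2 ratio of 0.43). *Rxra* was at 0.526 and 0.530 and *Rarg* at 0.262 and 0.381. *Cyp26a1*, which degrades retinoic acid, gave 7 UMIs in 3 of 107 WT macrophages and 79 UMIs in 38 of 242 *Postn*-DTR macrophages (0.0685 and 0.449).

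Markers of other cells within the macrophages differed between the libraries. The summed level of 12 neutrophil markers was 1.57 in WT, with 5 markers at 0, and 12.7 in *Postn*-DTR, with none at 0. Monocyte markers summed to 5.17 and 18.3, DC markers to 25.2 and 9.20, plasma cell markers to 4.36 and 13.2 and fibroblast markers to 1.35 and 2.14. Their part in the ratios above was not tested.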

How the data were processed

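Single-cell libraries of WT and *Postn*-DTR omentum (1 each, 3 pooled mice) were analysed. The submitters' notes name Cell Ranger 6.0.0 and mm10. The labels give a 5′ kit and the study's methods a 3′ kit. The authors deposited natural log values, ln(1 + UMIs per 10000), which were back-transformed, and UMIs recovered from them were whole within 0.1 UMI for 99.95% (WT) and 99.89% (*Postn*-DTR) of values. Total recovered depth was 80152113 and 81011255 UMIs.

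Cells with 200 to 7500 genes and at most 25% mitochondrial UMIs were clustered in Seurat 5.3.0 (R 4.3.3, sctransform 0.4.2, 3000 features, 30 components, resolution 0.8), without the 10 genes and without V, D and J segments. Clusters were called X-like by marker lists, with scoring thresholds set after the clusters had been seen. Macrophage-like cells were re-clustered (2000 features, 15 components, resolution 0.4) with immunoglobulin genes also left out. Doublets (Scrublet score of at least 0.25, scanpy 1.11.5) were 1.56% and 1.80% of cells and were left in except in 1 alternative. Scrublet's own limit had marked 2 WT cells.

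No test was possible. Intervals are exact Clopper-Pearson for shares and conditional binomial for ratios of summed UMIs, and beside a share of 0 stands the upper limit set by 3 counts. The ratio and thinning functions were tested on simulated data. The genes and lists were chosen with earlier results of these data known. Besides the 10 genes, the text names the 10 genes most correlated with *Gata6* (among genes with at least 50 UMIs in macrophages, 0.02 added to levels) and the 4 most abundant of each list, of which 1 gene is not reported here. Genes named as leading a sub-cluster, and *Aldh1a2*, *Plac8*, *Ly6c2*, *F10*, *Plaur* and *Cyp26a1*, were chosen after their values were seen.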

Additional observations from a re-analysis of the deposited data

Results flagged for a closer look

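With 1 library per group no sample can stand apart from its replicates. Members whose counting intervals lay on opposite sides of 0 in macrophages and in another class were *Serpinb2* and *Fn1*. *Serpinb2* had a log2 ratio on summed UMIs of 1.40 in macrophages and -0.81 in monocyte-like cells. *Fn1* had 0.25 in macrophages and -0.67 in stromal cells, where 240 of the 337 *Postn*-DTR UMIs of *Fn1* remained without the 1 cell with the most *Alox15*. In WT macrophages 1 cell held 670 of the 2878 UMIs of *Fn1*. The counting intervals leave out the spread between cells and between animals, and neither difference between classes was tested.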

How the results depend on the processing

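No paired analysis was possible because each group holds 1 library. Of the 10 genes, 6 were at least 2-fold higher in *Postn*-DTR macrophages, and 4 to 8 under 13 of the 14 alternatives. In the main setting 5.66% of all genes measured were that much higher and 4.03% that much lower. These shares were not computed under the alternatives, so the counts there have no background beside them. With *Postn*-DTR levels weighted to the WT mix of sub-clusters the count was 1, and *Gata6*, *F5*, *Selp* and *Fn1* changed sign, to -0.0755, -0.51, -0.88 and -0.54. That weighting rests largely on 3 *Postn*-DTR cells of sub-cluster 2. Taking every leukocyte with an *Adgre1* or *Csf1r* UMI turned *Timd4* to 0.13. The macrophage share of leukocytes, which is not their number in the omentum, was 3.41 times as high in *Postn*-DTR. It was 6.84 times as high with plasma-like and neutrophil-like cells left out of the leukocytes, and 2.71 times among cells with a *Ptprc* UMI. For every leukocyte with an *Adgre1* or *Csf1r* UMI it was 1.33 times as high. Leaving out sub-clusters 3 and 4, an alternative added after seeing the data, gave 2.94 times, with 6 genes at least 2-fold higher and 0 lower, *Timd4* being at -0.88. The number of genes with thinned shares apart and higher in *Postn*-DTR was 4, and 4 or 5 under the alternatives. No such count was made over all genes. The cause of the changes between alternatives was not tested. *Gata6* rested on 11 WT UMIs. Its ratio ranged from 0.94 to 2.92 over the 13 alternatives without weighting.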
